A study of Mus musculus with 15 samples.

Results

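The genes described here are the bile acid, drug and ABC transporters of the mouse: the organic anion transporters (Slco), the organic cation and anion transporters (Slc22a), the bile acid carriers (Slc10a), the multidrug and toxin extruders (Slc47a) and the ATP-binding cassette families Abca, Abcb, Abcc, Abcd and Abcg. They were taken by their names on the array, which gave 96 genes on 123 probes out of 22594 named genes. Their RNA was measured on 15 single-color arrays of whole liver carcinomas from mice given carbon tetrachloride (CCl4), a liver toxin, at 0.5 µl per g body weight by intraperitoneal injection for 16 weeks from 6 weeks of age. One group was hepatocellular carcinoma (HCC) of p53f/f mice, which carry the floxed Trp53 gene and served as controls (5 tumors from 4 mice). The other groups were HCC and intrahepatic cholangiocarcinoma (ICC) of p53LKO mice, in which Trp53 is deleted in the liver (5 tumors from 5 mice each), and 4 mice gave both an HCC and an ICC. The Cre driver is not given in the sources used here. The study killed mice at more than 1 age without saying which age each animal on the arrays had. It reports that tumors formed significantly later in p53f/f than in p53LKO mice. Few p53f/f mice had tumors at the age when nearly all p53LKO mice did. The p53f/f HCC may therefore come from older mice, and age and genotype cannot be told apart between the HCC groups. The study describes the HCC animals of the genotype comparison as males, which takes in the 4 mice that gave both tumors. The sex of mouse 3977, which gave only an ICC, is not stated. Because whole tumors were extracted, fewer cells of a type and less RNA per cell cannot be told apart.

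Bile forms when hepatocytes take up bile acids, bilirubin and drugs from the blood and pump them, with phospholipid and cholesterol, into the canaliculus. Uptake runs mainly through Slc10a1 and the Slco and Slc22a carriers on the blood side, and export through ATP-driven pumps such as Abcb11 on the canalicular side. When canalicular export is blocked, Abcc3 and Abcc4 on the blood side return bile acids to the circulation. The comparison of p53LKO with p53f/f HCC asks what differs between the genotypes in one tumor entity, with any difference in age included. The comparison of ICC with HCC asks what differs between tumor entities of one genotype.

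A level is the log2 intensity of a probe minus the 75th percentile of its array, so levels of different probes cannot be compared with each other. A gene with several probes stands as its brightest probe. Genes with a signal well above background in 3 or more tumors of either group compared were tested with limma, p-values were adjusted by the Benjamini-Hochberg method over all probes tested, and a gene was called higher or lower at an adjusted p under 0.05 with over 2-fold change. Values in individual tumors are listed in one order throughout. For p53f/f HCC this order is mice 3681, 3715, 3716, 3717 (T1) and 3717 (T2), for p53LKO HCC mice 3976, 5283, 3731, 3733 and 3975, and for ICC mice 3731, 3733, 3976, 3977 and 5283.

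Of the 96 genes, 47 were well above background on all 15 arrays, 36 on 1 to 14 arrays and 13 on 0 arrays, and 77 could be tested in at least 1 comparison. The 13 undetected genes include Slc22a8 and Slc22a2, transporters known from the kidney. The share of all probes well above background ranged from 55.1 to 70.1% in p53f/f HCC, from 37.0 to 62.1% in p53LKO HCC and from 42.5 to 47.0% in ICC. All p53f/f HCC lay in the upper row of their slides and all ICC in the lower row, while p53LKO HCC lay in both (mice 3976 and 5283 in the lower row). All 12 hepatocyte markers examined were well above background on every array of each group. Their mean level was 6.75 to 7.61 in p53f/f HCC, 6.37 to 6.83 in p53LKO HCC and 3.85 to 6.27 in ICC. The probe named Trp53 ranged from -1.27 to -0.68 in p53f/f HCC, from -3.86 to -2.75 in p53LKO HCC and from -4.19 to -2.31 in ICC. The files place that probe on chromosome 17, away from the Trp53 gene, so its place relative to the deleted part is not known.

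Transporter RNA was more often lower than higher in ICC against HCC of the same genotype. Of 73 transporter genes tested, 30 (41.1%) were called lower in ICC and 8 (11%) higher. Over all 16140 genes tested, 15.5% were called lower and 12.3% higher. The median log2 fold change was -0.78 over the transporter genes and -0.19 over all genes tested. With the 12 genes that were above background on no array of 1 group set to their bound, or to 0 where the bound gave no fold, the transporter median was -0.51. In 29 of the 73 genes all ICC lay below all p53LKO HCC and in 7 all lay above, against 20.3% and 10.4% of all genes. On lower-row arrays alone, which leave 2 p53LKO HCC, 22 genes were called lower and 7 higher.

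The canalicular pumps were lower in ICC throughout. All 9 were called, with a median log2 fold change of -2.56 (-2.53 with Abcg8 at its bound), and in 8 of them the groups did not overlap. Abcb1a, a multidrug efflux pump, measured 2.76, 2.14, 3.13, 2.52 and 2.41 in p53LKO HCC and -0.63, -1.55, -0.71, -0.49 and -0.24 in ICC. The fall was 3.32 on the log2 scale (SE 0.27, adjusted p 2.15e-05), and every ICC lay below every HCC. Its paralog Abcb1b measured 1.12, -0.05, 1.10, 0.90 and 0.22 in p53LKO HCC and -1.18, -1.32, -1.19, -1.30 and -1.01 in ICC, a log2 fold change of -1.86 (SE 0.24, adjusted p 0.000289). The groups were again apart, and the ICC values were close to each other. The probes of the paralogs share no run of letters longer than 7 bases.

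Abcg5 and Abcg8 form together the heterodimer that secretes cholesterol into bile. Abcg5 was 4.48, 3.95, 4.25, 4.49 and 4.01 in p53LKO HCC and 1.38, -1.59, 0.21, 2.14 and 2.11 in ICC. This gave a log2 fold change of -3.39 (SE 0.62, adjusted p 0.0017) with no overlap. Abcg8 was -0.43, -1.05, -0.81, -0.88 and -0.65 in p53LKO HCC and was not well above background on any of the 5 ICC arrays, which makes it at least 3.84-fold lower in ICC (adjusted p 9.53e-05). This bound sets the mean of the HCC values against the detection limit of each ICC array. These genes lie head to head, and the 109 bases between their RefSeq starts (GRCm38.p6, chr17:84683012-84683120, plus strand) are shown because both fell in both comparisons.
Abcg5 to Abcg8: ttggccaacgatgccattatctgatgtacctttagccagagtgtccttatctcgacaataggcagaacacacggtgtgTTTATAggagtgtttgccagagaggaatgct
The capitals mark the letters TATAAA, read on the minus strand. TATAAA occurs on either strand in 12.4% of the 32851 RefSeq windows of 250 bases before a start, and in 11 of the 75 transporter genes with such a window. The 50 bases after a start were not searched.

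Abcb4, the flippase that delivers phosphatidylcholine to bile, was 6.89, 6.14, 6.41, 6.58 and 6.44 in p53LKO HCC and 4.42, 1.59, 4.22, 5.06 and 3.83 in ICC. It fell by 2.67 on the log2 scale (SE 0.53, adjusted p 0.00264), and its other probe fell by 2.22. Abcc2, which exports bilirubin glucuronides, was 4.20, 4.42, 4.11, 4.81 and 4.38 against 2.65, 0.54, 1.84, 2.61 and 1.65 in ICC, a log2 fold change of -2.53 (SE 0.37, adjusted p 0.000472). Neither gene overlapped between the groups. Slc47a1, an extruder of organic cations, had a log2 fold change of -2.56 (SE 0.63, adjusted p 0.00808), and Abcg2, a drug and urate exporter, one of -1.73 (SE 0.29, adjusted p 0.00107), both without overlap. The Slc47a1 call was lost in 3 of 27 alternative settings, among them the array row as a block and lower-row arrays alone.

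Abcb11, the bile salt export pump, was the canalicular gene whose groups overlapped. It was 5.73, 5.08, 5.45, 5.72 and 5.03 in p53LKO HCC and 4.77, 1.35, 3.92, 5.13 and 3.70 in ICC. The ICC of mouse 3977 lay within the HCC values and that of mouse 3733 far below the rest. The log2 fold change was -1.63 (SE 0.59, adjusted p 0.043), and the call was lost in 15 of 27 alternative settings, with adjusted p up to 0.203. Leaving out the ICC of mouse 3733 made the log2 fold change -1.02 (adjusted p 0.0303). Leaving out any 1 of the 5 p53LKO HCC, or the ICC of mouse 3976 or 5283, ended the call (adjusted p 0.0551 to 0.0822).

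**Figure D1:**
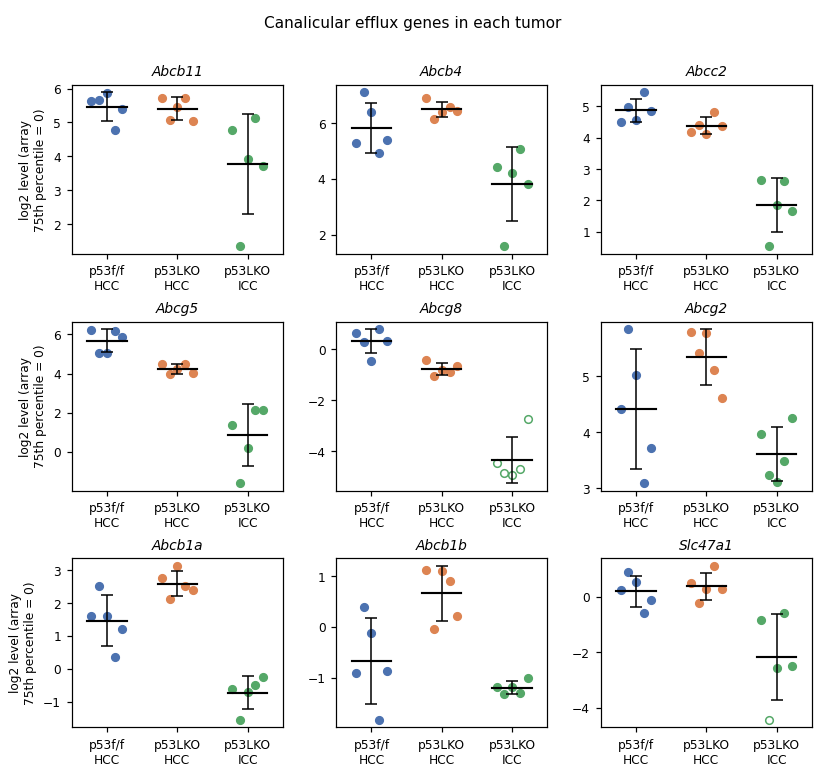
Levels of the 9 canalicular efflux genes in each tumor, as log2 intensity relative to the 75th percentile of the array (y axis, 1 scale per gene), for p53f/f HCC, p53LKO HCC and p53LKO ICC (5 tumors each). Filled dots are well above background, open dots are not, and bars show the mean ± SD. In 8 genes all ICC lie below all p53LKO HCC, and in Abcb11 the highest ICC (5.13) lies above the lowest p53LKO HCC (5.03).

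The ICC tumors varied among themselves. The mean level over the 8 canalicular genes other than Abcg8 was 1.82, -0.27, 1.10, 2.01 and 1.48 in ICC, against 3.36 to 3.93 in p53LKO HCC. The ICC of mouse 3733 was the lowest in 7 of these 8 genes. Its mean over the hepatocyte markers, 3.85, was also the lowest, while the ICC of mice 3731, 3976, 3977 and 5283 had 6.15, 5.38, 6.27 and 5.17.

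Markers of other cells moved with this comparison. Of 12 hepatocyte markers 7 were called lower in ICC and none higher (median log2 fold change -1.59). Among 10 cholangiocyte markers tested, Epcam, Krt19, Spp1 and Krt7 were higher and Anxa13 lower, and the mean over the list was 0.05 to 0.53 in ICC and -1.91 to -0.76 in p53LKO HCC. Epcam was not well above background on any p53LKO HCC array and Muc1 on no ICC array. Of 8 stellate cell and fibroblast markers 6 were higher, with list means of 4.10 to 5.0 in ICC and 1.83 to 3.83 in p53LKO HCC. Among 7 macrophage markers only Lyz2 was called higher, and Cd163 was not well above background on any array. Of 7 endothelial markers Vwf was higher. The part of these cells in the transporter differences was not tested.

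On the blood side of the hepatocyte, 4 of 5 efflux pumps were called lower in ICC and all 4 without overlap. Abcc4, which exports bile acids and cyclic nucleotides, was 4.09, 3.56, 2.61, 5.40 and 5.47 in p53LKO HCC and -0.38, -0.31, -0.12, -0.09 and -0.14 in ICC. The log2 fold change was -4.43 (SE 0.49, adjusted p 0.000114), and the ICC values spanned a far narrower range than the HCC values. Abcc3, an exporter of glucuronides and bile acids, changed by -2.04 (SE 0.32, adjusted p 0.000783) and Abcc5, a nucleotide exporter, by -1.88 (SE 0.27, adjusted p 5e-04). Abcc6, known for release of ATP from hepatocytes, changed by -1.58 (SE 0.53, adjusted p 0.0325). Its call was lost in 12 of 27 alternative settings (adjusted p up to 0.139), also on leaving out the p53LKO HCC of mouse 3976, 5283 or 3733 or the ICC of mouse 5283 (0.0556 to 0.0643). Without the ICC of mouse 3733 Abcc6 stayed called, at a log2 fold change of -1.04 (adjusted p 0.0207). Abcc1, which exports glutathione conjugates, measured 1.10, 0.27, -0.42, -0.23 and 0.94 in p53LKO HCC and 0.03, 0.91, 0.70, 0.16 and 0.90 in ICC. These values overlapped, with a log2 fold change of 0.21 (SE 0.33, adjusted p 0.629).

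Among the hepatocyte uptake genes 2 of 8 tested were called lower in ICC. Slc22a7, an organic anion carrier, was 5.28, 1.72, 4.01, 4.57 and 4.89 in p53LKO HCC and -1.29, -3.32, -0.74, -1.07 and -1.76 in ICC. The log2 fold change of -5.73 (SE 0.67, adjusted p 0.000157) came without overlap. Slco2b1, a carrier of steroid sulfates, was 2.76, 2.22, 2.31, 2.73 and 2.31 against 1.79, -0.47, 1.43, 2.02 and 0.86, a log2 fold change of -1.34 (SE 0.41, adjusted p 0.0216). Without the ICC of mouse 3733 it was -0.94, under the fold limit, and the call was lost in 8 of 27 alternative settings (adjusted p up to 0.134). Slco1b2, the main hepatocyte carrier of bilirubin and statins, was 5.44, 6.05, 5.0, 5.07 and 2.29 in p53LKO HCC and 5.12, 2.39, 5.04, 5.67 and 3.92 in ICC. One tumor in each group stood low and the remaining values overlapped, with a log2 fold change of -0.34 (SE 0.75, adjusted p 0.734) that was 0.17 without the ICC of mouse 3733. The carnitine carrier Slc22a5 had 0.63 (SE 0.24, adjusted p 0.0543). The log2 fold change of the Slco1a subfamily gene Slco1a4 was 0.00 (SE 0.77, adjusted p 0.997). Slco1a1 was well above background on 3 of 5 p53LKO HCC arrays and on no ICC array, and no fold is given. Slc22a3 was too dim to be tested.

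Slc10a1, the main sodium-dependent bile acid carrier of hepatocytes, needs its probes described before its values. The array has a pair of probes for it. The brighter one is placed at chr12:100686870-100686929 (mm9), 18.6 megabases from the dimmer one at chr12:82061470-82061529, and its nearest named probes belong to Elk1, 3300002A11Rik and Foxn3. Of 118 transporter probes with a position, 117 lie among the neighbors of their gene and only this one does not. Bases 11 to 40 of each probe, as the files give them, are shown with no part in capitals.
Slc10a1 brighter probe: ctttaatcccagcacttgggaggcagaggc
Slc10a1 dimmer probe: cattatgttatcactcgtcatggttctcat
The brighter probe reads as the B1 repeat, an element found in very many copies in the mouse genome. It shares a stretch of at least 16 bases with 15 other probes of the array, against at most 5 for any other of the 123 transporter probes (median 0). By the dimmer probe, which lies at the gene, Slc10a1 was 0.69, 1.5, 1.66, -1.40 and 1.36 in p53f/f HCC. It was -0.23, -2.31, 0.23, -2.09 and 0.39 in p53LKO HCC and -0.78, -4.76, -1.61, 0.93 and -2.38 in ICC. The groups overlapped, and its log2 fold change was -0.92 (SE 0.95, adjusted p 0.452) in ICC against p53LKO HCC and -1.56 (SE 0.70, adjusted p 0.11) in p53LKO against p53f/f HCC. The brighter probe was called lower in p53LKO HCC (log2 fold change -1.11, SE 0.18, adjusted p 0.00115) and not in ICC (0.34, SE 0.22, adjusted p 0.222).

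Slc10a2, the bile acid carrier of the ileum and of bile duct cells, was 3.59, 2.98, 3.28, 4.52 and 3.02 in p53LKO HCC and 2.26, 1.43, 1.14, 1.57 and 0.53 in ICC. All ICC lay below all HCC, with a log2 fold change of -2.09 (SE 0.36, adjusted p 0.00124).

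The half-transporters of mitochondria and lysosomes included 4 of 5 genes lower in ICC, all without overlap. Abcb6, a porphyrin transporter, was 3.75, 3.26, 3.03, 3.69 and 2.83 in p53LKO HCC and 1.19, -0.03, 1.16, 1.47 and 1.30 in ICC, a log2 fold change of -2.29 (SE 0.30, adjusted p 0.000287). Abcb9, a lysosomal peptide transporter, changed by -2.05 (SE 0.46, adjusted p 0.00523), a call that was lost with the array row as a block. The mitochondrial Abcb8 and Abcb10 changed by -1.57 (SE 0.17, adjusted p 0.000114) and -1.16 (SE 0.19, adjusted p 0.000937). The Abcb10 call was lost in 2 of 27 alternative settings, both of them other normalizations. With the 4 half-transporters and the canalicular pumps, 8 of the 9 Abcb genes tested were lower in ICC.

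Of 7 genes of cellular cholesterol and lipid export 1 was higher and 1 lower, with a median log2 fold change of -0.01. Abca1, which loads cholesterol onto apolipoprotein A-I, was 2.93, 2.79, 2.92, 2.88 and 2.48 in p53LKO HCC and 2.91, 2.78, 2.78, 2.53 and 2.95 in ICC. The groups spanned nearly the same narrow range, and the log2 fold change was -0.01 (SE 0.15, adjusted p 0.976). Abca2, an endolysosomal lipid transporter, was lower (-1.12, SE 0.24, adjusted p 0.00368) and Abcg4, a sterol exporter, higher (1.13, SE 0.25, adjusted p 0.00438), both without overlap. Without the p53LKO HCC of mouse 5283, Abcg4 had 0.95, under the fold limit. The Abca2 call was lost in 3 of 27 alternative settings and the Abcg4 call in 4 of 27. Abca3, Abca5, Abca7 and Abcg1 had log2 fold changes of -0.78, -0.08, 0.45 and 0.26, none called.

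Of the Abcd half-transporters only Abcd2, a peroxisomal importer of fatty acids, was called. It was at least 1.42-fold lower in ICC (adjusted p 0.00562), where it was not well above background on any array, and the groups overlapped. The call was lost in 5 of 27 alternative settings (adjusted p up to 0.0919), among them the array row as a block and lower-row arrays alone. Abcd3, also peroxisomal, and Abcd4, a lysosomal cobalamin transporter, had -0.32 and 0.04. In the Abca6-like gene cluster Abca6 changed by -2.73 (SE 0.76, adjusted p 0.0139), Abca8a by -1.99 (SE 0.35, adjusted p 0.00131) and Abca8b by -1.42 (SE 0.48, adjusted p 0.0327), while Abca9 had 0.37 and was not called. The Abca6 call was lost in 4 of 27 alternative settings (adjusted p up to 0.0733), lower-row arrays alone among them. The ICC of mouse 3733 was again far below the other ICC in Abca6, at -4.48 against -1.30 to 0.32. The call of Abca8b was lost in 13 of 27 alternative settings (adjusted p up to 0.0967). Among them were the mouse as a block, the array row as a block and lower-row arrays alone. The Abca8b call was also lost without the p53LKO HCC of mouse 3976, 5283 or 3733 or the ICC of mouse 5283 (adjusted p 0.0578 to 0.0698). It was lost too without the ICC of mouse 3733 (log2 fold change -0.95).

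**Figure D2:**
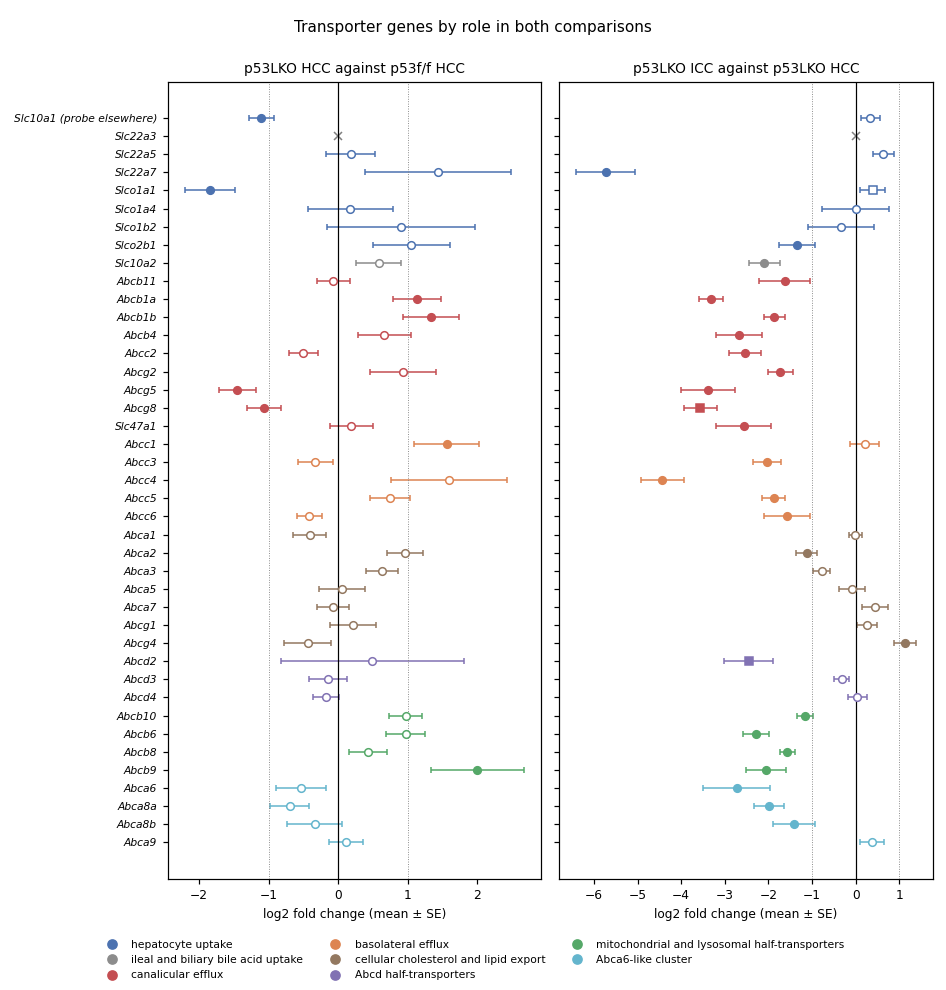
Log2 fold changes of transporter genes by role in both comparisons (x axis, mean ± SE from limma). Filled symbols are called, open ones are not, squares mark genes above background on no array of 1 group, drawn at a fitted value that is neither a measured change nor a bound, the cross marks Slc22a3, which was not tested, and dotted lines mark 2-fold. The canalicular genes other than Abcg8 lie between -3.39 and -1.63 in ICC against p53LKO HCC and between -1.45 and 1.33 in p53LKO against p53f/f HCC.

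Of the remaining genes, Abcc12, an ABC transporter with no settled substrate, was lower in ICC. It was 3.16, -1.54, 1.29, 3.51 and 2.29 in p53LKO HCC, was not well above background on any ICC array, and was therefore at least 22-fold lower in ICC (adjusted p 0.000252). The p53LKO HCC of mouse 5283 lay far below the other p53LKO HCC, and the second Abcc12 probe was too dim to be tested. Slc22a18, 5.12 to 5.79 in p53LKO HCC and 2.95 to 3.84 in ICC, changed by -1.83 (SE 0.22, adjusted p 0.000185). Slc22a23, Slco1a6 and Abcg3 were also called lower, the last 2 with no ICC above background. The Slc22a23 call was lost in 3 of 27 alternative settings, 1 of them without the ICC of mouse 3733. The Slco1a6 call was lost in 7 of 27, lower-row arrays alone among them. The Abcg3 call was lost in 19 of 27, with the mouse as a block and in 7 of the 10 settings that left out 1 tumor (the p53LKO HCC of mice 3976, 3731 and 3975 and the ICC of mice 3731, 3733, 3976 and 3977).

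The 8 genes higher in ICC came from the Slco, Slc22a, Abca and Abcg families. Slco3a1, a broadly expressed carrier of prostaglandins and bile acids, was 0.07, 1.70, 2.04, -0.09 and 0.26 in p53LKO HCC and 3.14, 4.55, 3.91, 3.09 and 4.07 in ICC. It rose by 2.95 on the log2 scale (SE 0.47, adjusted p 0.000745) without overlap, and its other probe by 3.29 (SE 0.40, adjusted p 0.000197). Slc22a21, a carnitine carrier, was -2.77 to -1.99 in p53LKO HCC and -0.34, 0.28, -0.50, -0.52 and 0.60 in ICC (log2 fold change 2.22, SE 0.26, adjusted p 0.000151). These genes were higher in every ICC than in any HCC of either genotype.

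Slc22a15 rose by 1.74 (SE 0.33, adjusted p 0.00214), from -2.93 to -1.39 in p53LKO HCC to -0.95 to -0.08 in ICC. Abca13 was well above background in 4 of 5 ICC and in no HCC, and was at least 6.45-fold higher in ICC than in p53LKO HCC (adjusted p 0.000361). Slco4a1, a carrier of thyroid hormone, was -3.83, -3.32, -1.06, -3.91 and -3.72 against -2.66, 0.30, -0.63, -0.20 and -1.60, a log2 fold change of 2.21 (SE 0.65, adjusted p 0.0186). The p53LKO HCC of mouse 3731 lay among the ICC, so these groups overlapped, and the call was lost in 6 of 27 alternative settings, with the mouse or the array row as a block among them. Slc22a13b-ps, listed by RefSeq as Slc22a13b, changed by 1.88 (SE 0.29, adjusted p 0.000676). Slco1c1, the remaining gene among the 8 called higher, was well above background on 3 of 5 p53LKO HCC arrays and on no ICC array, so it has no measured level in ICC and no fold is given. Its call was lost in 8 of 27 alternative settings, among them those without the p53LKO HCC of mouse 3731, 3733 or 3975. The median level of 3618 genes detected on no array was -7.19 to -4.22 in p53LKO HCC and -5.01 to -4.49 in ICC, and the part of this background in the dimmest genes was not tested.

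**Figure D3:**
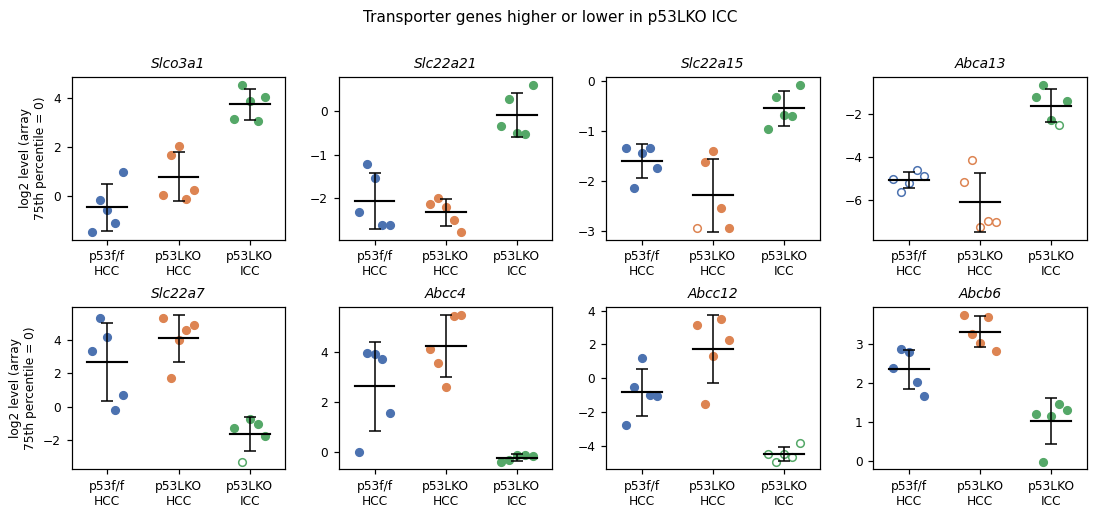
Levels in each tumor of 4 transporter genes higher (top) and 4 lower (bottom) in ICC than in p53LKO HCC, as log2 intensity relative to the 75th percentile of the array. Filled dots are well above background, open dots are not, and bars show the mean ± SD of 5 tumors. Slco3a1 is 3.09 to 4.55 in ICC and at most 2.04 in any HCC, and Abcc4 is -0.38 to -0.09 in ICC.

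Between the HCC of both genotypes the transporter genes were called at shares near those of all genes. Of 76 tested, 5 (6.58%) were called higher in p53LKO HCC and 10 (13.2%) lower, against 5.42% and 9.0% of all 16850 genes tested. The medians were 0.10 and 0.09 on the log2 scale. The tumors of the genotypes separated fully in 7 genes, p53LKO being the higher in 1 and the lower in 6, against 8.55% and 9.64% of all genes. These counts moved with the scaling: with the spike-in probes as reference, under which the median log2 fold change of all genes was 0.83, the split was 22 higher and 3 lower. On upper-row arrays alone, which leave 3 p53LKO HCC, 5 genes were higher and 7 lower, and all 7 but only 1 of the 5 (Abcb9) were called on all 10 arrays too. This comparison and the previous one share the 5 p53LKO HCC.

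Among the canalicular genes, the cholesterol transporter fell and the multidrug pumps rose. Abcg5 was 6.24, 5.07, 5.05, 6.16 and 5.89 in p53f/f HCC against 4.48, 3.95, 4.25, 4.49 and 4.01 in p53LKO HCC. Every p53LKO value was below every control value, with a log2 fold change of -1.45 (SE 0.27, adjusted p 0.00254). Abcg8 was 0.62, 0.27, -0.45, 0.78 and 0.31 against -0.43, -1.05, -0.81, -0.88 and -0.65, where only the p53f/f HCC of mouse 3716 reached into the p53LKO values. Its log2 fold change was -1.07 (SE 0.24, adjusted p 0.00607), and it came under the fold limit without the p53f/f HCC of mouse 3681 (-0.99), without 3717 T1 (-0.95) or without the p53LKO HCC of mouse 5283 (-1.0). The Abcg8 call was lost in 5 of 28 alternative settings and the Abcg5 call in 2 of 28. Both were lost with the spike-in probes as reference.

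Abcb1a was 1.62, 2.51, 1.60, 0.36 and 1.22 in p53f/f HCC against 2.76, 2.14, 3.13, 2.52 and 2.41 in p53LKO HCC. It rose by 1.13 (SE 0.35, adjusted p 0.0303). Abcb1b was -0.91, 0.39, -0.13, -1.83 and -0.87 against 1.12, -0.05, 1.10, 0.90 and 0.22, and rose by 1.33 (SE 0.40, adjusted p 0.0273). Both genes overlapped between the genotypes. Each call was lost in 14 of 28 alternative settings (adjusted p up to 0.0818 for Abcb1a and 0.0705 for Abcb1b), among them the slide or the array row as a block, upper-row arrays alone and both tumors of mouse 3717 averaged. Both were also lost without 3717 T1, without 3717 T2 and without the p53LKO HCC of mouse 3976, 3731 or 3733 (adjusted p 0.0515 to 0.0669), and Abcb1b also lost its call without the control tumor 3681 (0.056).

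The other canalicular genes were not called. The bile salt pump Abcb11 was 5.64, 5.65, 5.87, 4.78 and 5.39 in p53f/f HCC against 5.73, 5.08, 5.45, 5.72 and 5.03 in p53LKO HCC, with a log2 fold change of -0.07 (SE 0.24, adjusted p 0.857). Abcb4, Abcc2, Abcg2 and Slc47a1 had 0.66, -0.50, 0.93 and 0.19. When the control tumor 3715, which had the highest Abcg2 level, was left out, Abcg2 had 1.28 (adjusted p 0.0311).

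Of the uptake genes, Slco1a1, a carrier of bile acids and steroid conjugates known to be male-predominant in mouse liver, was lower in p53LKO HCC. It was -0.82, -1.67, -2.04, -2.93 and -2.29 in p53f/f HCC against -4.01, -4.34, -3.75, -3.28 and -3.63 in p53LKO HCC. No value was shared by both ranges, and the log2 fold change was -1.85 (SE 0.36, adjusted p 0.00295), with 3 of 5 p53LKO HCC well above background. The B1-like Slc10a1 probe was the other uptake feature called lower, and with the probe at the gene in its place 9 rather than 10 transporter genes were lower.

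Slco1b2 varied within the genotypes, at 4.38, 6.20, 3.79, -0.01 and 4.99 in p53f/f HCC, and had 0.90 (SE 1.06, adjusted p 0.541), which became -0.07 without 3717 T1, 1.48 without 3715 and 1.52 without the p53LKO HCC of mouse 3975. Slc22a7 was 3.33, 5.32, 4.17, -0.23 and 0.72 in p53f/f HCC against 5.28, 1.72, 4.01, 4.57 and 4.89 in p53LKO HCC (1.43, SE 1.05, adjusted p 0.316). In both genes 3717 T1 was the lowest of the p53f/f HCC, and without it Slc22a7 had 0.71. Slco2b1, Slc22a5 and Slco1a4 had 1.05, 0.18 and 0.17, and Slc10a2 had 0.58, none called. Without 3717 T1 Slco2b1 had 0.51, and without the p53LKO HCC of mouse 5283 Slco1a4 had -0.42.

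On the blood side Abcc1 was the only efflux gene called, at -2.73, -1.24, -0.06, -0.99 and -1.11 in p53f/f HCC against 1.10, 0.27, -0.42, -0.23 and 0.94 in p53LKO HCC. It rose by 1.56 (SE 0.47, adjusted p 0.0256), with the p53f/f HCC of mouse 3716 above 2 of the p53LKO HCC. The call was lost in 7 of 28 alternative settings (adjusted p up to 0.108), among them the array row as a block, upper-row arrays alone and leaving out the p53LKO HCC of mouse 3976 (0.059) or 3975 (0.0586). Abcc4 had 1.59 (SE 0.83, adjusted p 0.163), with a p53f/f range from 0.01 to 3.95, and 0.93 (adjusted p 0.33) without the p53f/f HCC of mouse 3681. Abcc3, Abcc5 and Abcc6 had -0.33, 0.74 and -0.42.

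Abcb9 was the half-transporter called. It was -0.45, 2.30, 1.03, -0.91 and -0.42 in p53f/f HCC against 1.90, 1.20, 4.16, 1.91 and 2.41 in p53LKO HCC, and rose by 2.0 (SE 0.67, adjusted p 0.0414) with overlap. The call was lost without any 1 of the tumors 3681, 3717 T1 and 3717 T2 of p53f/f mice and of mice 3976, 3731, 3733 and 3975 of p53LKO mice (adjusted p 0.0578 to 0.0939), and also with the slide as a block and with both tumors of mouse 3717 averaged. Abcb6 and Abcb10 had 0.97 each (adjusted p 0.021 and 0.00996), just under the fold limit, and came over it on leaving out the control tumor 3715 (1.10 and 1.16) among others. Abcb8 had 0.43.

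Abca2 was the 1 gene higher in every p53LKO HCC than in every p53f/f HCC, at 1.98, 1.31, 1.36, 1.46 and 1.58 against 0.58, 1.05, 1.20, -0.01 and 0.07. Its log2 fold change of 0.96 (SE 0.26, adjusted p 0.0178) was under the fold limit, while that of its dimmer probe, 1.26 (SE 0.26, adjusted p 0.00396), was above it. By their brightest probes, none of the lipid export, Abcd or Abca6-like genes was called. Beside Abca2, the log2 fold changes ran from -0.44 (Abcg4) to 0.63 (Abca3) in lipid export, from -0.18 (Abcd4) to 0.49 (Abcd2) in the Abcd genes and from -0.70 (Abca8a) to 0.11 (Abca9) in the Abca6-like cluster. Abcd2, above background in 3 of 5 p53f/f and 4 of 5 p53LKO HCC, ran from -0.48 without the control tumor 3716 to 1.19 without 3717 T1, so its direction was not settled.

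Of the other genes Slc22a13b-ps was the one with the lowest adjusted p, at -2.51, -2.32, -3.16, -2.12 and -2.15 in p53f/f HCC against -4.17, -4.27, -4.21, -4.18 and -4.72 in p53LKO HCC (log2 fold change -1.86, SE 0.22, adjusted p 0.000195, no overlap). Abca15 was at least 1.86-fold lower (adjusted p 0.00214) and Slc22a22, a prostaglandin carrier, at least 1.53-fold lower (adjusted p 0.0112), both with no p53LKO HCC above background. Slc22a12, the urate transporter of the kidney, Slco1c1 and Slco6b1 were also called lower, with log2 fold changes of -1.63, -1.22 and -1.39. The Slc22a12 call was lost in 19 of 28 alternative settings, 7 of them without 1 tumor (3715, 3716, 3717 T1 and 3717 T2 of p53f/f mice, and those of p53LKO mice 3976, 5283 and 3975). The Slco6b1 call was lost in 15 of 28, 5 of them without 1 tumor (3681, 3717 T1 and 3717 T2 of p53f/f mice, and those of p53LKO mice 3976 and 3731). The Slco1c1 call was lost in 8 of 28, 1 of them without the tumor of p53LKO mouse 3976, the Slc22a22 call in 6 of 28 and the Abca15 call in 3 of 28. None of these 6 genes was well above background on all p53LKO HCC arrays. Of the 15 genes called in this comparison 7 were well above background on all 10 arrays, against 23 of 38 in the ICC comparison. Slco1a6 was called higher (2.72, SE 0.91, adjusted p 0.041), with 1 of 5 p53f/f HCC and 4 of 5 p53LKO HCC above background. This call was lost in 19 of 28 settings, 7 of them without 1 tumor (3681, 3716, 3717 T1 and 3717 T2 of p53f/f mice, and those of p53LKO mice 3976, 3731 and 3733).

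**Figure D4:**
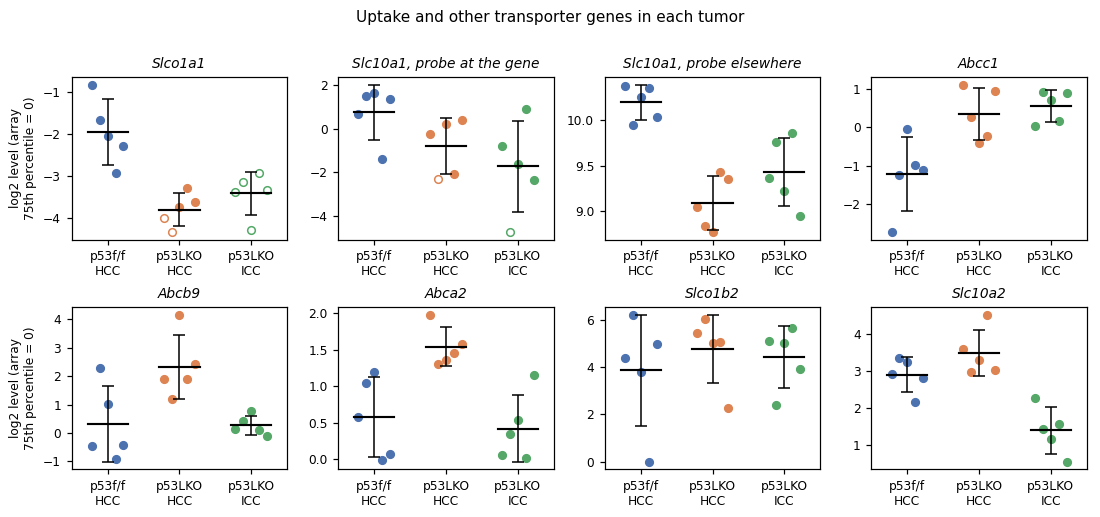
Levels of uptake and other transporter genes in each tumor, as log2 intensity relative to the 75th percentile of the array, with Slc10a1 shown by both of its probes. Filled dots are well above background, open dots are not, and bars show the mean ± SD of 5 tumors. Slco1a1 lies at -4.34 to -3.28 in p53LKO HCC and at -2.93 to -0.82 in p53f/f HCC, and Slco1b2 spans -0.01 to 6.20 in p53f/f HCC.

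Leaving out 1 tumor in turn moved the number of genes higher in p53LKO HCC from 5 to between 0 and 9. It was 2 without the p53f/f HCC of mouse 3681, 9 without 3715, 1 without 3717 T1 and 2 without 3717 T2. It was 0 without the p53LKO HCC of mouse 3976 (limma, 6 genes over 2-fold at an unadjusted p under 0.05), 8 without 5283 and 1 without 3733. The number lower stayed between 7 and 11. Averaging both tumors of mouse 3717 gave 1 higher (Abcc1) and 9 lower, of which 8 were among the 10, with Slco6b1 and Slc22a12 lost and Slc22a30 gained. In the ICC comparison the same step gave 26 to 30 lower and 7 to 8 higher, and 8 or 9 of the canalicular genes.

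The enzymes, receptors and other carriers of bile acid handling were examined beside the transporters. In ICC, 7 of 17 bile acid synthesis enzymes were called lower and none higher, among them Akr1d1 (-3.23), Cyp39a1 (-3.14), Acox2 (-2.84) and Amacr (-2.40). Cyp7a1, the rate-limiting enzyme, had 1.70 (SE 0.77, adjusted p 0.096) and Cyp8b1, which sets cholic acid, 0.61 (adjusted p 0.663). Of 16 genes of bile acid sensing and transporter regulation 10 were lower in ICC. They included the xenobiotic receptor Nr1i2 (-3.07), the FGF coreceptor Klb (-3.07), the repressor Nr0b2 (-2.14), Hnf4a (-2.03) and the bile acid receptor Nr1h4 (-1.48). The vitamin D receptor Vdr (3.15, adjusted p 0.024) and Ahr (2.05, adjusted p 0.00206) were higher. Among 9 other bile carriers and flippases tested 5 were lower, with Slc51b, a subunit of the basolateral organic solute transporter, at -4.75 (SE 0.65, adjusted p 0.000356), and its partner Slc51a was too dim to be tested.

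Between the HCC of both genotypes few of these genes were called. Cyp39a1 was higher (1.61, adjusted p 0.0276) and Cyp2c70, which makes muricholic acids, lower (-1.16, adjusted p 0.0271), as 2 of 17 enzymes. Slc51b was higher (2.21, SE 0.72, adjusted p 0.0361). The hepatocyte markers Apob and Fga were lower (2 of 12), 0 of 8 cholangiocyte markers were called, and of the stellate cell and fibroblast markers Lum was higher (1 of 8). Of the endothelial markers Stab2 (-1.17, adjusted p 0.027) and Tek (-1.06, adjusted p 0.00852) were lower (2 of 7), and the mean over the list was 0.61 to 1.41 for p53f/f and -0.28 to 1.20 for p53LKO tumors. The part of these cells in the transporter differences was not tested.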

How the data were processed

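Tumor RNA (RNeasy, Low Input Quick Amp labelling with Cy3) had been hybridised by the authors to 15 single-color 8x60K arrays and scanned, and Agilent Feature Extraction 10.7.3.1 gave the deposited intensity per spot, corrected for background by that software. A deposited table of log2 values was also used as an alternative. Its 10 HCC columns had been centred by the authors on their median per probe while differences between HCC and ICC columns did not match the scanner values, so it served only for the HCC comparison. Precision is limited by the number of tumors and by signal over background.

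The log2 of each spot was taken, spots marked as outliers were left out, and the spots of a probe were averaged on the log2 scale. The 75th percentile of each array over non-control probes was then subtracted. Probes had to be well above background in 3 or more tumors of either group, and were tested with limma 3.58.1 in R 4.3.3, with 5 tumors per group and no covariates, and p-values were adjusted by Benjamini-Hochberg over all probes tested. Exact permutation tests over the 252 choices of 5 of 10 arrays were computed for single genes and cannot go below 0.00794. For a probe not above background on any array of a group, a fold is given as a bound where the bound exceeds 1 and is otherwise not given, and fitted values of such probes enter the calls, the medians and the plot by role. The tests were checked on simulated data. The p53f/f HCC include 2 tumors of 1 mouse. Tumors of the 4 mice that gave both HCC and ICC had correlations of their deviations from the group means of -0.143 to 0.0655 (4 pairs), against -0.263 to 0.284 for different mice (21 pairs), and the pairing rests on the mouse numbers in the labels.

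The genes named were the transporters listed by role, and per comparison up to 5 genes that rose most and 5 that fell most, if called without overlap. Others named, such as dim genes called, single genes of the pathway lists and genes varying within a group, were chosen after their values were seen. A few listed genes are not reported here. Members and lists were chosen with earlier results of these data known. The labels and the study's methods differ in how often CCl4 was given. Promoter windows come from RefSeq (GRCm38.p6), in which 75 of 96 genes had one, and probe positions from the files (mm9). No genome was used.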

Additional observations from a re-analysis of the deposited data

Results flagged for a closer look

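In 6 of 127 gene and group pairs examined, 1 tumor stood apart from the other 4, with a gap to its nearest neighbor that made up over 0.71 of the range of the group. About 1 in 20 groups would be marked in this way by chance. In p53LKO HCC, Abca3 was low in the tumor of mouse 3976 (4.36 against 5.05 to 5.32, gap 0.721 of the range). Abcd4 was low in the p53LKO HCC of mouse 3975 (-0.12, next tumor 0.50, gap 0.827), and so was Slco1b2 (2.29, next tumor 5.0, gap 0.722). In ICC, Abcb6 was low in the tumor of mouse 3733 (-0.03, next tumor 1.16, gap 0.795) and Abcg4 in that of mouse 3977 (-2.18, next tumor -1.69, gap 0.733). In p53f/f HCC, Abca9 was high in the tumor of mouse 3716 (-1.26, next tumor -1.48, gap 0.805).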

How the results depend on the processing

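The number of transporter genes higher in p53LKO than in p53f/f HCC, 5 in the reported setting, was 2 with quantile normalization, 1 with the 75th percentile of probes above background on all 15 arrays, 22 with spike-in scaling, 3 with the slide as a block, 8 with no fold limit and 1 with both tumors of mouse 3717 averaged. It was 0 with no filter on dim probes (limma, 8 genes over 2-fold at an unadjusted p under 0.05), 0 by the methods' t-test with Welch's correction after adjustment (5 such genes) and 0 at an adjusted p under 0.01 (7 such genes). The number lower, 10, was 3 with normexp background correction, 5 with quantile normalization, 3 with spike-in scaling, 3 when every array of both groups had to be above background and 6 at an adjusted p under 0.01. Leaving out 1 tumor gave 0 to 9 higher and 7 to 11 lower. The number higher in ICC, 8, was 5 with normexp, 2 with every array of both groups above background and 4 with every array of at least 1 group above background, and 7 to 8 without 1 tumor. The number lower in ICC, 30, stayed within 1.5 times in every setting run (26 to 30 without 1 tumor). Fewer genes were tested under the stricter filters. The cause of the other shifts was not tested.

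With the mouse as replicate block, 7 genes were higher and 29 lower in ICC. A random mouse block could not be estimated for the HCC comparison, since only 1 mouse gave 2 tumors, and averaging these tumors was added after seeing the data. So was Slc10a1 by the probe at its gene. No named gene changed direction while called. Signal near background limits the dim genes, which have no settled level there.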

Other observations

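Both tumors of the p53f/f mouse 3717 were on the arrays, which gives 1 pair of HCC from the same liver and genotype, without replication and without a test. Of 68 transporter genes well above background in all 5 p53f/f HCC, 6 differed by over 2-fold between them, 5 higher and 1 lower in T2, and the median size of the difference was 0.38 on the log2 scale. The same count over all genes was not made, and the tumors were on different slides. Whether transporters differed more than other genes is therefore not known. The hepatocyte uptake carrier Slco1b2 was -0.01 in T1 and 4.99 in T2, and the uptake carrier Slco2b1 was -0.77 and 1.90. Slco3a1 was -1.08 and 1.01, Slc22a30 was -1.47 and 0.42, and Slco1c1 was -3.73 and -2.43. The export pump Abcc4 ran the other way, at 3.71 in T1 and 1.58 in T2. Slc10a1, by the probe at its gene, was -1.40 in T1 and 1.36 in T2.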
